A study of Homo sapiens with 6 samples.

Results

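The annexin family was examined here through 10 genes, ANXA1 to ANXA7, ANXA9, ANXA11 and ANXA13, in HEK293 cells 72 h after transfection with siRNA against BAHD1 or with control siRNA. Members were all probe sets annotated to exactly 1 of these genes, which gave 20 of the 54675 probe sets on the array and 10 of the 19775 genes that have a probe set of their own. The family was chosen by name, but with the fold changes of this very comparison already known, the low value of ANXA1 in BAHD1 siRNA cells among them. Their values in that comparison are therefore a description. Where a fit over all probe sets is quoted, it places an annexin among the other probe sets and is not independent evidence. The study holds 6 arrays from HEK293, a line established from human embryonic kidney: 3 biological replicates with the BAHD1 siRNA and 3 with the control siRNA. Both groups were grown in the same medium with serum and transfected with the same lipid reagent. BAHD1 is a chromatin protein known for its part in heterochromatin formation and gene silencing, and the comparison asks which transcripts change when it is depleted. It rests on 1 cell line and on siRNA transfection, with no sequence of the siRNAs used here.

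Annexins are calcium-dependent proteins that bind acidic phospholipids. Each has a conserved core of repeats that carries the calcium and membrane binding, and an N-terminal tail that differs between members and binds partners such as S100 proteins. In cells they take part in membrane trafficking, exocytosis, membrane repair and the link between membrane and actin, and ANXA1 is also released and acts on formyl peptide receptors.

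The stretches upstream of ANXA1 and ANXA2 are shown because these genes had unlike values, a much lower signal for ANXA1 and small differences for ANXA2, and unlike start regions. They are the 250 bases before the RefSeq start site (GRCh38.p14) at chr9:73151615-73151864, plus strand, and chr15:60397987-60398236, minus strand, written 5′ to 3′. Capitals mark the letters CCAAT, found on either strand and so also as its reverse complement, the TATA box letters TATAAA, and the AP-1 core TGANTCA.
ANXA1: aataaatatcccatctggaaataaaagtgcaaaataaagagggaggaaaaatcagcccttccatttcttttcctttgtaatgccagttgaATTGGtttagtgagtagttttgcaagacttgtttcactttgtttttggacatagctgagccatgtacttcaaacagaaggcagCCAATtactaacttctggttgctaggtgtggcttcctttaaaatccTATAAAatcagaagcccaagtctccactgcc
ANXA2: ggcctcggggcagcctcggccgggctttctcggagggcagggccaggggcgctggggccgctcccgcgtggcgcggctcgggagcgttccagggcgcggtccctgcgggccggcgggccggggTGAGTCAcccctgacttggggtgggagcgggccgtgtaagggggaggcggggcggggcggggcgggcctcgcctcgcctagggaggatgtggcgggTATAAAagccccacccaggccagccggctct

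Both stretches hold TATAAA, beginning 31 bases before the start site in each. ANXA1 holds CCAAT on either strand 2 times and ANXA2 holds TGAGTCA once. The motifs were searched on both strands and do not overlap in these stretches. Among 35116 upstream stretches of this length in the same table, 10.7% hold TATAAA, 32% hold CCAAT and 6.57% hold TGANTCA. The ANXA1 stretch has no CpG dinucleotide and a GC content of 38.4%, whereas the ANXA2 stretch has 28 CpG dinucleotides and a GC content of 78.0%. Of all stretches, 6.06% have no CpG, and the median count is 11.

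Of the 10 annexin genes 9 had at least 1 start site in the table, 13 in all, and ANXA13 is named only. CpG counts were 36 and 21 before the ANXA4 start sites, 31 for ANXA5, 20 for ANXA7, 18 for ANXA3, 19 and 10 for ANXA6, 9, 22 and 5 for ANXA11, and 4 for ANXA9. Thus 8 of the 13 stretches lay above the median of all stretches and ANXA1 was the one without a CpG. TATAAA occurred in 3 of the 13, the third being a start site of ANXA11. These are features of the sequence, and which start sites HEK293 cells use was not tested.

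**Figure D1:**
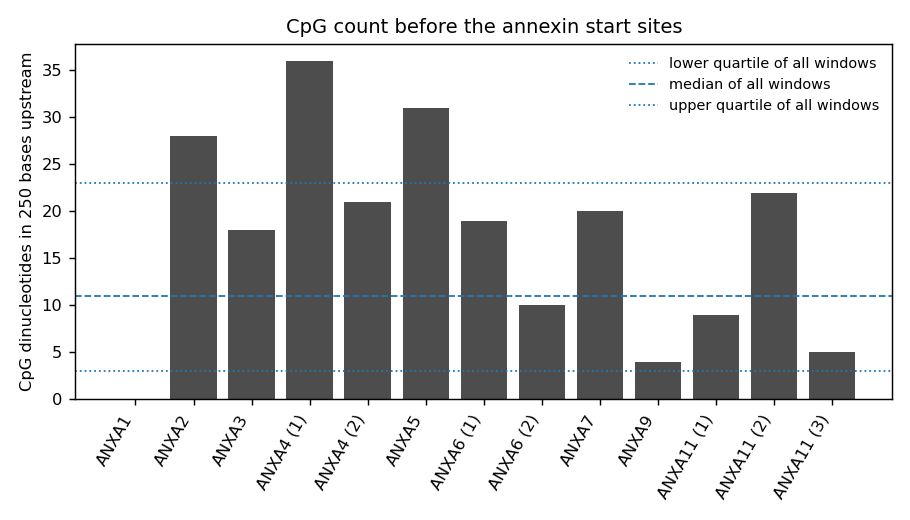
CpG dinucleotides (count, y axis) in the 250 bases before each annexin start site in RefSeq, with numbers in brackets for genes with several start sites; the bar for ANXA1 has height 0. Lines give the lower quartile (3), median (11) and upper quartile (23) of 35116 stretches, and 8 of the 13 bars exceed the median.

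Array values are intensities in arbitrary units on a linear scale. Fold changes were taken after adding 1 and taking log2, so those of dim probe sets are understated. Median signals were 17.5 to 19.5 in BAHD1 siRNA arrays and 15.9 to 17.9 in control arrays. BAHD1 itself was read by 1 probe set, with signals of 36.6, 46.8 and 41.2 in BAHD1 siRNA arrays and 62.9, 55.7 and 46.7 in control arrays. The groups touched at 46.8 and 46.7, and the difference of -0.40 in log2 units (SE 0.15) did not pass (limma, adjusted p = 0.251). In total RNA from cultures, fewer cells that hold a transcript and less of it per cell cannot be told apart. Of 8 markers fixed for HEK293, 7 were measured, LHX1 being below the filter. Of 8 markers of other cell types only PECAM1 was measured, at signals of 13.9 to 20.1 in BAHD1 siRNA arrays and 13.8 to 19.7 in control arrays. The RNA spikes added before labelling differed between the groups: their mean log2 signal over 24 probe sets was 9.02 to 9.32 in BAHD1 siRNA arrays and 8.55 to 8.76 in control arrays. The ratio of 3′ to 5′ signal for GAPDH, a measure of RNA integrity, was 0.956 to 0.966 in BAHD1 siRNA arrays and 0.926 to 0.955 in control arrays. For ACTB this ratio was 1.62, 1.49 and 1.67 in BAHD1 siRNA arrays and 1.47, 1.54 and 1.49 in control arrays, which overlap. The part of these differences in the annexin values was not tested.

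Probe sets were tested when 3 or more of the 6 arrays had a signal over 17.9, the median value on the arrays without control probe sets, which kept 27458. Of the 20 annexin probe sets 15 passed this filter, for 8 genes, with 9 lower and 6 higher in BAHD1 siRNA cells. A limma fit with 1 variance prior for all probe sets called 0 of the 27458 (a share of 0%) at an adjusted p under 0.05, with 4843 under 0.05 unadjusted. A fit that lets the prior depend on mean signal, named the intensity-trend fit here, called 1221, or 4.45% of those tested, and 2.28% as lower. Below, "fell" refers to this second fit alone. It called 1 of the 15 annexin probe sets, that of ANXA1, and 14 did not pass. With 1 prior, 0 of the 15 passed and 3 had an unadjusted p under 0.05. The same 15 had a median log2 fold change of -0.14, against 0.01 for all tested probe sets. Brightness goes with sign across the whole array: the median log2 fold change was -0.04 in the brightest quartile of tested probe sets, where 42.1% were above 0, and 0.11 in the dimmest, where 60.9% were. Of the 15 annexin probe sets 9 lay in the brightest quartile, and their median was -0.16. Groups did not overlap in 5 of the 15, 4 lower and 1 higher, where 25.6% of all tested probe sets did not overlap, 12.2% being lower and 13.4% higher.

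**Figure D2:**
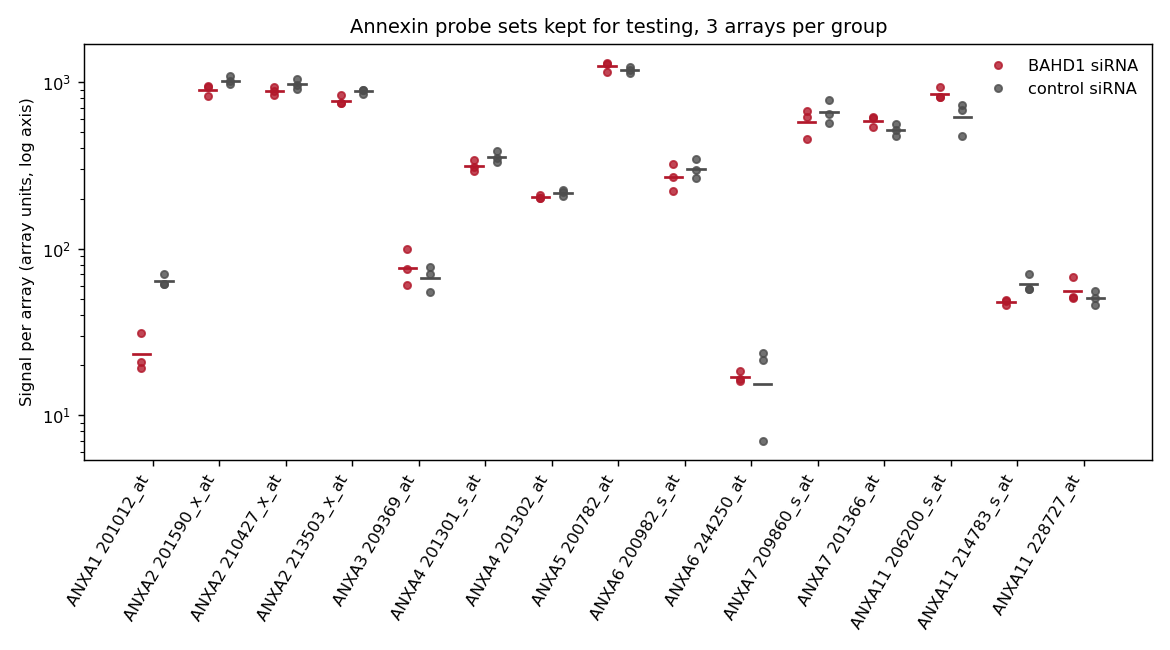
Signal of each array (array units, log axis) for the 15 annexin probe sets kept for testing, with BAHD1 siRNA arrays (red, left) and control siRNA arrays (grey, right), 3 each; the short lines are group means taken on the log2(signal + 1) scale. The 3 BAHD1 siRNA values of ANXA1, 19.3 to 31.1, lie apart from its control values of 61 to 70.8, while most other probe sets overlap.

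ANXA1, a glucocorticoid-induced protein that dampens inflammation and inhibits phospholipase A2 activity, had the largest difference among the annexins. The signals were 20.8, 19.3 and 31.1 in BAHD1 siRNA arrays and 61, 61.1 and 70.8 in control arrays. Every BAHD1 siRNA array lay below every control array, and replicate 3 was the highest of each group. On the log2 scale the level was 4.60 ± 0.36 in BAHD1 siRNA cells and 6.03 ± 0.12 in control cells (SD, n = 3 each). ANXA1 thus fell by 1.43 on the log2 scale, to 37.2% of the control level. The SE was 0.22 in the intensity-trend fit (limma, adjusted p = 0.00756) and 0.19 in the fit with 1 prior, where ANXA1 did not pass (limma, adjusted p = 0.114).

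Among the 27458 tested probe sets the log2 fold change of ANXA1 was the 28th from the lowest. Of the 625 probe sets called lower in the intensity-trend fit, 3 had a lower log2 fold change and 38 a smaller p. All 6 ANXA1 signals passed the filter, although the lowest, 19.3, was close to its level of 17.9. Adding 16 in place of 1 before taking logs gave a log2 fold change of -1.02. Over the settings in which ANXA1 was tested, its log2 fold change ran from -1.63 to -1.02. ANXA1 was called in 0 of 12 versions of the fit with 1 prior, the fit set for the calls. In the intensity-trend fit, the alternative, it was called in 12 of 12. Its adjusted p (limma) was 0.0752 to 0.292 in the first and 8.12e-05 to 0.0341 in the second. All these versions re-use the same arrays, in which the low value of ANXA1 was already known. The number of versions is therefore not repeated evidence. A stricter filter, at a signal of 99.9, left ANXA1 untested in both fits. Some versions of the intensity-trend fit were combinations chosen after seeing the data. The one with centred array medians, which gave the lowest adjusted p, was among them. A further probe set of ANXA1 was not measured: its signals were 0.8, 6.6 and 0.5 in BAHD1 siRNA arrays and 5.6, 0.5 and 0.3 in control arrays. The fall of ANXA1 thus rests on 1 probe set.

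**Figure D3:**
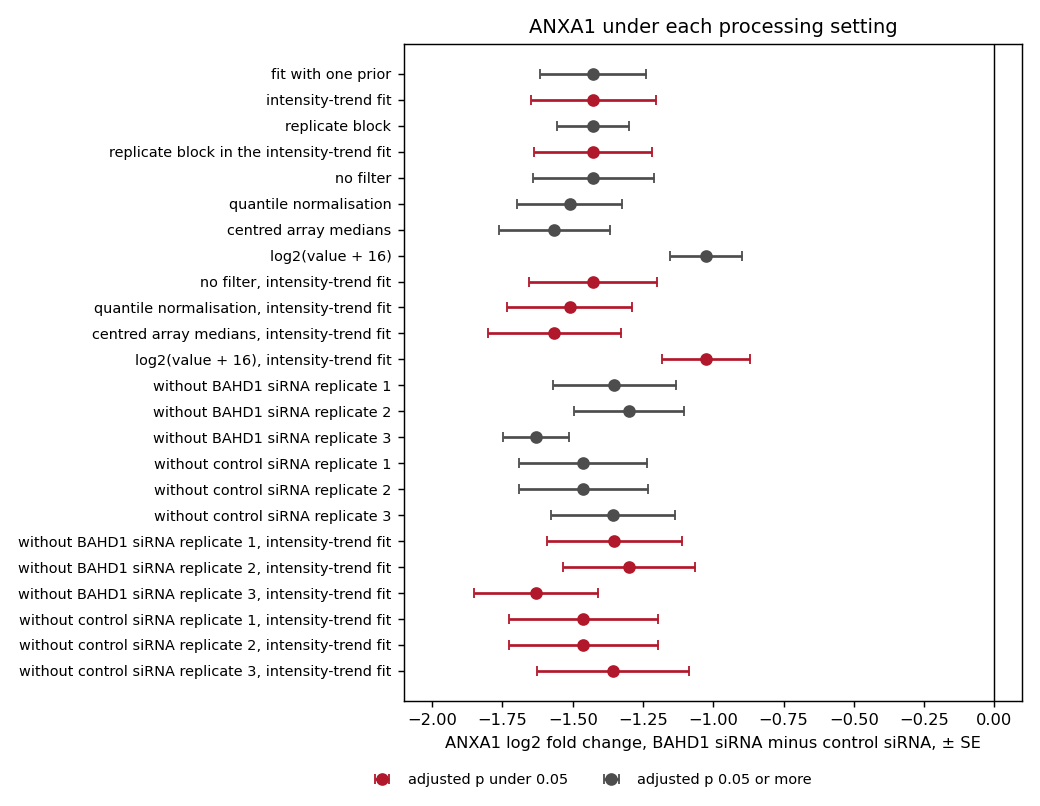
ANXA1 log2 fold change, BAHD1 siRNA minus control siRNA, with its SE (x axis) under each of 24 processing settings (y axis); red points have an adjusted p under 0.05 over all probe sets tested. Every value lies between -1.63 and -1.02, and the 12 red points are the versions of the intensity-trend fit, some chosen after seeing the data. All settings re-use the same arrays, so the number of red points is not repeated evidence.

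By shape over the 6 arrays, the tested probe sets closest to ANXA1 among 23545 with 1 gene belonged to SPTAN1, CCDC90B, TOM1L2, UBL3 and KCNC4. Likeness was the mean absolute difference of log2 values after each probe set's control mean was subtracted, and it was 0.21, 0.24, 0.26, 0.28 and 0.30 for these 5. UBL3, a ubiquitin-like protein, had signals of 155.7, 106 and 119.6 in BAHD1 siRNA arrays and 217.6, 255.1 and 264 in control arrays. KCNC4, a voltage-gated potassium channel, had 14.8, 16 and 13.1 in BAHD1 siRNA arrays and 30.9, 36 and 32.3 in control arrays. The log2 fold changes of UBL3 and KCNC4 were -0.96 and -1.13. As these 5 were picked for their likeness to ANXA1, a lower value in BAHD1 siRNA cells came with the choice, and no test is given. The probe sets of SPTAN1, CCDC90B, TOM1L2 and KCNC4 passed the filter through the control arrays alone, so a low value in BAHD1 siRNA arrays was built into their being tested.

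ANXA2, which forms a complex with S100A10 and binds plasminogen at the cell surface, was read by 3 tested probe sets, all slightly lower in BAHD1 siRNA cells. Probe set 201590_x_at had signals of 946.9, 942.1 and 824.2 in BAHD1 siRNA arrays and 1087.1, 1017.9 and 970.1 in control arrays. Probe set 210427_x_at had 929.7, 889.9 and 836.1 in BAHD1 siRNA arrays and 1041.7, 967.2 and 916.6 in control arrays. For 213503_x_at the values were 833.8, 752 and 745.6 in BAHD1 siRNA arrays and 901.2, 901 and 845.6 in control arrays. The groups were apart for the first and the last and overlapped for 210427_x_at. In the intensity-trend fit the log2 fold changes were -0.18, -0.14 and -0.18, with SEs of 0.08, 0.07 and 0.07, and did not pass (limma, adjusted p = 0.19, 0.296 and 0.156). Without BAHD1 siRNA replicate 3 the first was -0.12, and without control replicate 1 the second was -0.09.

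The suffix of these 3 probe sets marks probes that also match other transcripts, and ANXA2 has processed pseudogenes, so the signal may be shared. A probe set annotated to the pseudogene ANXA2P2 had 243.1, 250.3 and 217.9 in BAHD1 siRNA arrays and 265, 249.3 and 238.9 in control arrays, with overlapping groups and a log2 fold change of -0.08. A probe set annotated jointly to SNU13 and ANXA2 had 2986.6, 2943 and 2820.3 in BAHD1 siRNA arrays and 2801.7, 2713.3 and 2805.1 in control arrays, slightly higher, at a log2 fold change of 0.07. The fourth ANXA2 probe set was below the filter, with signals up to 4.7 in BAHD1 siRNA arrays and 7.8 in control arrays.

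ANXA11, which links RNA granules to lysosomes and acts at the midbody in cell division, gave probe sets of opposite sign. Probe set 206200_s_at had signals of 815.9, 934.9 and 815.3 in BAHD1 siRNA arrays and 474.9, 683.7 and 733.4 in control arrays. The groups were apart, with control replicate 1 well below the other control arrays. In the intensity-trend fit its log2 fold change of 0.46 (SE 0.13) did not pass (limma, adjusted p = 0.0784; with 1 prior it was 0.268). Without control replicate 1 it was 0.27, and with the replicate block, with the stricter filter or without control replicate 3 the intensity-trend fit did call it (limma, adjusted p = 0.0248, 0.0462 and 0.0358). The versions with the replicate block and with the stricter filter were combinations chosen after seeing the data. Over all versions of the intensity-trend fit its adjusted p ran from 0.0248 to 0.232 (limma).

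Probe set 214783_s_at of ANXA11 had 49, 45.7 and 48.3 in BAHD1 siRNA arrays and 57, 70.3 and 57.1 in control arrays, again with no overlap but lower in BAHD1 siRNA cells. Its log2 fold change was -0.35, SE 0.17 (limma, adjusted p = 0.246). The remaining one, 228727_at, had 50.8, 50.9 and 67.9 in BAHD1 siRNA arrays and 55.5, 50.5 and 45.6 in control arrays, which overlap, at 0.15 with an SE of 0.18. That value was 0.01 without BAHD1 siRNA replicate 3, the array with 67.9, and 0.08 without control replicate 3. ANXA11 therefore has no single direction in these data, and which of its transcripts each probe set reads was not analysed here.

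ANXA7, or synexin, known for calcium-dependent membrane fusion in secretion, also gave opposite signs. Probe set 201366_at had signals of 615, 536.9 and 613.8 in BAHD1 siRNA arrays and 476.8, 517.6 and 557.3 in control arrays, and 209860_s_at had 620.1, 670 and 457.8 in BAHD1 siRNA arrays and 777.5, 645 and 572.4 in control arrays. The groups overlapped in both. The log2 fold changes were 0.19 with an SE of 0.08 for the first and -0.20 with an SE of 0.14 for the second, and neither passed (limma intensity-trend fit, adjusted p = 0.223 and 0.453). The negative value was -0.03 without BAHD1 siRNA replicate 3, -0.08 without control replicate 1, and -0.31 and -0.30 without BAHD1 siRNA replicate 2 and control replicate 3.

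ANXA6, which is built of a doubled annexin core and takes part in endocytic and cholesterol traffic, had signals of 271.2, 323.3 and 222.8 in BAHD1 siRNA arrays and 346.7, 298.6 and 265.4 in control arrays for 200982_s_at. Its other probe set, 244250_at, was just inside the filter, with 3 arrays above it, at 16.4, 18.3 and 16 in BAHD1 siRNA arrays and 23.7, 21.5 and 7 in control arrays. Groups overlapped in both. The log2 fold changes were -0.16 (SE 0.13) and 0.12 (SE 0.49), and neither passed. The first was -0.03 without BAHD1 siRNA replicate 3, -0.06 without control replicate 1, and -0.29 and -0.26 without BAHD1 siRNA replicate 2 and control replicate 3. The second ran from -0.40 (without control replicate 3) to 0.41 (without control replicate 1).

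ANXA4, a protein of Golgi and apical membranes in epithelia, was lower by small amounts in both probe sets. For 201301_s_at the signals were 339.6, 310.4 and 291.1 in BAHD1 siRNA arrays and 350.1, 384.5 and 330.8 in control arrays. For 201302_at they were 211.2, 202.1 and 202.8 in BAHD1 siRNA arrays and 225.4, 219.2 and 206.4 in control arrays. The groups overlapped in both, and the log2 fold changes of -0.18 (SE 0.09) and -0.08 (SE 0.09) did not pass. The second was -0.05 without control replicate 1.

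ANXA5, which binds phosphatidylserine and is widely used to stain dying cells, had signals of 1287.8, 1306.8 and 1146.9 in BAHD1 siRNA arrays and 1181.4, 1229.1 and 1129.3 in control arrays. The groups overlapped, at a log2 fold change of 0.08 (SE 0.07), which ranged between 0.04 and 0.14 when BAHD1 siRNA replicate 2 or 3 was left out, and was 0.05 when either BAHD1 siRNA replicate 1 or control replicate 3 was. Its sign depends on the scaling, being negative with the array medians centred. ANXA3, an annexin linked to endothelial migration and neutrophil granules, had 60.7, 75.7 and 99 in BAHD1 siRNA arrays and 54.9, 77.4 and 70.7 in control arrays. These overlap as well, at a log2 fold change of 0.20 with an SE of 0.19, which was 0.02 without BAHD1 siRNA replicate 3, 0.06 without control replicate 1, and 0.37 and 0.30 without BAHD1 siRNA replicate 1 and control replicate 2.

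ANXA9, an annexin whose core has lost its calcium-binding sites, and ANXA13, known mainly from intestinal epithelium, were not measured. The 5 annexin probe sets below the filter, which include all 3 of these genes, had signals between 0.3 and 12.9. At such signals no direction was read for ANXA9 or ANXA13. Of the 5 genes with more than 1 tested probe set, 3 (ANXA6, ANXA7 and ANXA11) had probe sets of opposite sign and ANXA2 and ANXA4 did not.

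Centring the array medians moved the median of all tested probe sets from 0.01 to -0.13 and every tested annexin value down with it. The ANXA2 probe sets were then at -0.32, -0.28 and -0.32, those of ANXA4 at -0.32 and -0.22, and ANXA5 at -0.06. The higher ANXA7 probe set was at 0.05 and the lower at -0.34, those of ANXA6 were at -0.30 and -0.02, and ANXA3 was at 0.06. For ANXA11 the values were 0.32, -0.49 and 0.01, and for ANXA1 -1.57. With this scaling ANXA5 and the dim ANXA6 probe set changed sign.

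**Figure D4:**
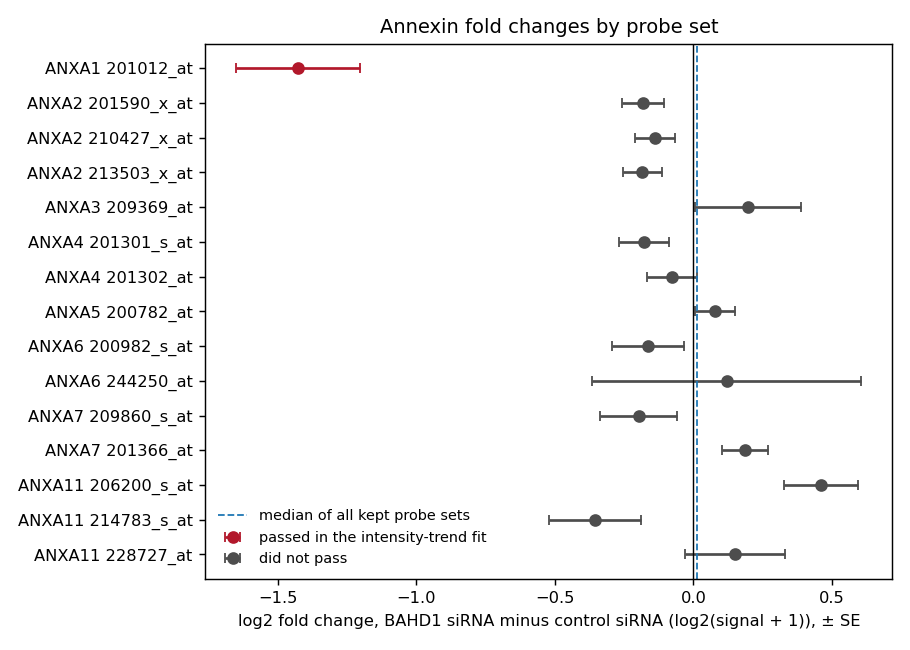
Log2 fold change of the 15 tested annexin probe sets, BAHD1 siRNA minus control siRNA, with its SE from the intensity-trend fit. ANXA1 at -1.43 stands apart from the other 14, which lie between -0.35 and 0.46; the dashed line is the median of all tested probe sets, 0.01.

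Genes that work with annexins were described from 6 lists, with each gene read by its brightest tested probe set. Of 80 genes 44 were measured, 21 higher and 23 lower in BAHD1 siRNA cells, at a median log2 fold change of -0.01 against 0.02 for all 12529 genes. At an unadjusted p under 0.05 there were 5 of the 44 in the intensity-trend fit and 3 of the 44 with 1 prior. Over all 27458 tested probe sets, counted by probe set and not by gene, the same counts were 5743 and 4843. These are larger shares than in the lists in both fits. After adjustment none of the 44 passed in the intensity-trend fit (limma, smallest adjusted p = 0.0926) or in the fit with 1 prior (limma, smallest adjusted p = 0.16), where the intensity-trend fit called 5.52% of all genes. Of the 44, 18 had more than 1 tested probe set, and in 11 of these the probe sets differed in sign.

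Among annexin partners and receptors 7 of 12 were measured, 3 higher and 4 lower. S100A10, the partner of ANXA2, had signals of 1195.1, 1172 and 1090.7 in BAHD1 siRNA arrays and 1257.9, 1408.6 and 1308 in control arrays. Every BAHD1 siRNA value was below every control value, and the log2 fold change of -0.20 with an SE of 0.07 did not pass (limma, adjusted p = 0.118). S100A11, a partner of ANXA1, had 320.3, 310.3 and 440 in BAHD1 siRNA arrays and 300.4, 406.3 and 353.1 in control arrays, overlapping at a log2 fold change of 0.01. The penta-EF-hand partners of ANXA7 and ANXA11, PDCD6 and SRI, had log2 fold changes of -0.03 and -0.11, with their other probe sets at 0.17 and -0.05. The formyl peptide receptor genes FPR1, FPR2 and FPR3, which respond to ANXA1, and S100A6, a partner of ANXA11, were below the filter. In the S100 family as a whole 5 of 18 genes were measured, 4 higher and 1 lower, with log2 fold changes from -0.20 to 0.17.

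Of the membrane repair genes 11 of 16 were measured, 4 higher and 7 lower, from CAPN1 at -0.40, whose other probe set was at -0.00199, to EHD2 at 0.28. EHD2 was dim, with 3 arrays above the filter and an SE of 0.50. Of the copines, calcium-dependent phospholipid-binding proteins of another family, 5 of 9 were measured, 3 higher and 2 lower, with a median of 0.01. In the glucocorticoid response list 8 of 9 genes were measured, 3 higher and 5 lower, with log2 fold changes from -0.74 (SGK1) to 0.28 (KLF9), and the receptor gene NR3C1 was at 0.05. SGK1 was dim, with 4 arrays above the filter and an SE of 0.35, and did not pass (limma, adjusted p = 0.257). Its signals were 10.6, 15.7 and 20.7 in BAHD1 siRNA arrays and 23.4, 28.1 and 26.3 in control arrays. The other probe sets of KLF9 were at -0.07 and -0.25, and those of NR3C1 ran from -0.46 to 0.22, so neither gene has a settled direction. Phospholipase A2 and eicosanoid synthesis genes were measured in 12 of 21 cases, 6 higher and 6 lower. PLA2G4A, the cytosolic phospholipase A2, was at -0.15 with an SE of 0.12. ALOX5, a leukotriene synthesis enzyme, had the highest value, 0.75 with an SE of 0.25 (limma, adjusted p = 0.109), while its other probe set was at 0.20. PTGDS had the lowest, -0.78 with an SE of 0.46 (limma, adjusted p = 0.359), while its other probe sets were at -0.72 and 0.42. Both genes were dim. ALOX5 had signals of 37, 40.3 and 37.1 in BAHD1 siRNA arrays and 17.4, 22.7 and 28 in control arrays. For PTGDS they were 7.3, 29.2 and 20.7 in BAHD1 siRNA arrays and 28.6, 43.4 and 19.8 in control arrays. The PTGDS probe sets carry the same suffix as those of ANXA2, so their signal may also be shared.

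**Figure D5:**
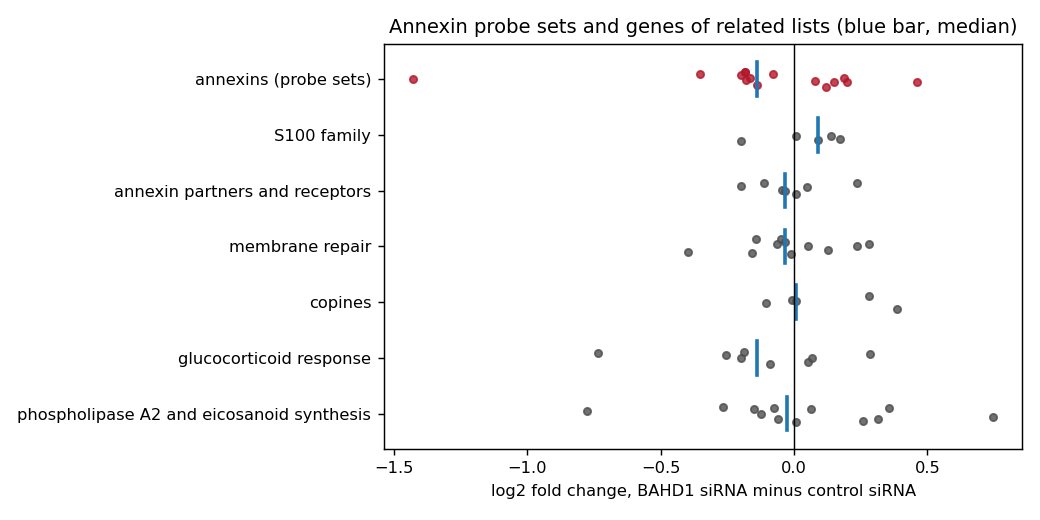
Log2 fold changes, BAHD1 siRNA minus control siRNA, of the 15 annexin probe sets (red) and of the measured genes of 6 related lists (grey, 1 point per gene), with the median of each row as a blue bar; vertical scatter within a row has no meaning. The annexin median is -0.14, and the medians of the lists run from -0.14 (glucocorticoid response) to 0.09 (S100 family).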

How the data were processed

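Total RNA from 6 HEK293 samples was labelled from oligo(dT) primers, per the labels' protocols, and hybridised to 1 array per sample. The deposited values are linear intensities, 1 for each probe set on each array. Every column has a trimmed mean of 100.01, as in GCOS signal scaled per array. GCOS and GCRMA are both named, with no version, in the submitters' processing notes. Which of them produced the table is not stated. No detection calls were used. Groups and replicate numbers came from the titles. The p-values rest only on the spread between these samples, with each probe set's variance drawn towards a prior estimated over the tested probe sets. The number of arrays limits the precision.

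After removal of 62 control probe sets, log2(value + 1) was tested in R 4.3.3 with limma 3.58.1 (lmFit, eBayes, Benjamini-Hochberg over all 27458 kept probe sets, threshold 0.05), once with 1 variance prior and once with the prior following the mean signal (trend and robust). The first was set as the fit for the calls; the second was set as an alternative and is given beside it. Genes were named from the platform annotation, and the symbols of all 10 annexin genes matched RefSeq (GRCh38.p14) by identifier. Both fits were also run on simulated data. The spread of those data was taken from the intensity-trend fit, so they cannot tell which fit suits these arrays.

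The members, the lists and the fits were chosen with earlier results of these data known. All probe sets of 1 annexin gene were named, plus the 5 patterns closest to ANXA1, the best known partners, and any list gene called. CAPN1, EHD2, SGK1, KLF9, NR3C1, PLA2G4A, ALOX5 and PTGDS were named after their values were seen. Alternatives were a replicate block, no filter, a stricter filter at the 75th percentile, array medians centred, quantiles of the arrays equalised, log2(value + 16) and leaving out each array.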

Additional observations from a re-analysis of the deposited data

How the results depend on the processing

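The fit with 1 prior called 0 probe sets, 0 annexin probe sets and 0 list genes. The number of probe sets called was 1221 in the intensity-trend fit. In the fit with 1 prior it became 1147 with the stricter filter, which tested 13876 probe sets. Combined with the intensity-trend fit, combinations chosen after seeing the data, it was 398 with no filter, 1622 with the stricter filter, 1233 after quantile normalisation, 1707 with centred array medians (192 higher and 1515 lower, against 596 and 625 without centring) and 1319 on the log2(value + 16) scale. With 1 array left out it ran from 0 to 4 in the fit with 1 prior and from 177 to 1174 in the intensity-trend fit: 1132, 186 and 177 without BAHD1 siRNA replicate 1, 2 and 3, and 295, 279 and 1174 without control replicate 1, 2 and 3. The number of annexin probe sets called was 1 in the intensity-trend fit and in each of its versions with all 6 arrays but the replicate block, where it was 2 (ANXA1 and ANXA11); with the stricter filter, which leaves out ANXA1, the 1 was ANXA11. It ran from 0 to 2 with 1 array left out. The number of list genes called was 1 in the intensity-trend fit with the replicate block (KLF9) and 1 with centred array medians (TSC22D3), and ran from 0 to 1 with 1 array left out.

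The replicate block called 0 probe sets in the fit with 1 prior and 1629 in the intensity-trend fit, the latter also a combination chosen after seeing the data. Over all tested probe sets same-numbered arrays barely deviated together (correlations of deviations 0.01, 0.01 and 0.02). The titles give them no more than a shared number, and whether they shared a batch was not tested. Of the 15 tested annexin probe sets 13 kept the sign of their log2 fold change in every setting that tested them; the exceptions were ANXA5 and 244250_at of ANXA6. Calls depend on the variance prior and on the filter, and dim signals, such as those of ANXA9 and ANXA13, limit what can be said. The causes were not tested.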

Other observations

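ANXA2R, annotated as a receptor of ANXA2, was singled out after its values were seen. Its signals were 40.8, 34.6 and 29.5 in BAHD1 siRNA arrays and 61.8, 50.9 and 51.8 in control arrays, with no overlap between groups. Its log2 fold change of -0.64 (SE 0.20, intensity-trend fit) did not pass in either that fit or the one with 1 prior (limma, adjusted p = 0.0831 and 0.16). The transcript annotated as its antisense RNA, ANXA2R-AS1, had 2.4, 8 and 5.2 in BAHD1 siRNA arrays and 12.1, 17.6 and 15.7 in control arrays, all below the filter and so not tested. Another transcript named after the gene, ANXA2R-OT1, overlapped between groups, at a log2 fold change of -0.09.

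Annexins outside the 10 genes were dim or shared a probe set. ANXA10 had signals of 0.4 to 1.6 in BAHD1 siRNA arrays and 0.8 to 9.3 in control arrays. Of the 2 probe sets annotated jointly to ANXA8 and ANXA8L1, 1 was tested, with 16.8, 22.4 and 22 in BAHD1 siRNA arrays and 16.9, 16.6 and 22.5 in control arrays, which overlap.

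Among the 7 HEK293 markers measured, 3 passed in the intensity-trend fit and 4 did not, where that fit called 5.52% of all genes. Each marker was read by its brightest tested probe set, and other probe sets of these genes are not given here. The neurofilament genes NEFM and NEFL rose, by 0.58 ± 0.15 and 0.37 ± 0.10 (log2 fold change ± SE), and the intermediate filament gene VIM fell by 0.32 on the log2 scale. Adjusted p was 0.0473, 0.0457 and 0.0318 (limma), and in the fit with 1 prior none of the 7 passed. PAX2, a kidney development gene, had 33.7, 45.6 and 46.1 in BAHD1 siRNA arrays and 24.3, 25.9 and 27.9 in control arrays, with no overlap, and its log2 fold change of 0.65 did not pass (limma, adjusted p = 0.119). INA, another neurofilament gene, was at 0.31, also with no overlap, and did not pass (limma, adjusted p = 0.235). CDH2 and KRT18 were at 0.08 and -0.02.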
